A study of Mus musculus with 12 samples.

Results

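The genes described here are 37 genes known from macrophages and from lipid-associated macrophages, measured in subcutaneous white adipose tissue (scWAT) and brown adipose tissue (BAT) of wild-type (WT) and *Lr11* -/- mice. They were taken by name from the probes of a one-colour Agilent mouse array, and where a gene had several probes the brightest stood for it. Of the 37 genes, 35 had a probe matched by its RefSeq accession, among 20660 genes matched on the array, and *Cd68* and *Clec7a* had none. Of the 35, 33 were tested, since *Tnf* and *Il1rn* were not well above background on all 3 arrays of any group.

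The series held 12 arrays, 3 for each of 4 groups, which were the scWAT and the BAT of WT and of *Lr11* -/- mice. All mice were males aged 12 weeks on a C57Bl6/J background, the WT mice being littermates of the mice that lack *Lr11* (*Sorl1*, a sorting receptor of the VPS10p family), and all groups received a high-fat diet (HFD) with 60% of calories from fat. The labels give this diet both as lasting 4 weeks and as running from weaning, so its length is unsettled. The tissue was frozen and ground whole, so each array measured the RNA of all its cell types, and fewer macrophages and less RNA per macrophage cannot be told apart. Nothing states whether the scWAT and BAT of a group came from the same animals, and p-values measure the spread between these arrays.

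Macrophages are the phagocytes of adipose tissue, where they clear dead cells and take up lipid that adipocytes release. Resident macrophages carry scavenger and lectin receptors such as CD163 and MRC1, whereas lipid-associated macrophages, which gather around dying adipocytes in obesity, carry the lipid receptor TREM2 and a lysosomal programme that includes GPNMB, CD9, osteopontin (*Spp1*) and galectin-3 (*Lgals3*). PU.1, the transcription factor that directs myeloid development, binds purine-rich sites whose centre reads GAGGAA.

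The 250 bases before the transcription start are shown for 5 members, *Marco*, the member called between the genotypes in scWAT, *Trem2*, *Gpnmb* and *Spp1* from the lipid-associated set, and *Retnla*, which varied the other way on the array where those were highest. They are RefSeq sequences of build GRCm38.p6, read 5′ to 3′ along the gene, and *Spp1* is shown for the upstream of its 2 listed starts. Capitals mark GAGGAA or its reverse complement and TGANTCA, the AP-1 site.
Marco (chr1:120505025-120505274, minus strand): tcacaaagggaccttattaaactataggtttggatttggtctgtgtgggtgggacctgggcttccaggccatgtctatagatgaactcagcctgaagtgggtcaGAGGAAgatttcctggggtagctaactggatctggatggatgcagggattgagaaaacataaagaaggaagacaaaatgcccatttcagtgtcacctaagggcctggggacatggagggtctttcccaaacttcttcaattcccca
Trem2 (chr17:48346151-48346400, plus strand): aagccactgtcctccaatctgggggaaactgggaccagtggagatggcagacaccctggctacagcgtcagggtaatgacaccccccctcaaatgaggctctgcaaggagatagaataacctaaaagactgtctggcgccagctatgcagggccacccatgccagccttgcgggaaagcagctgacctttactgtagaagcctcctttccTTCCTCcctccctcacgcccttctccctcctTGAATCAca
Gpnmb (chr6:49036268-49036517, plus strand): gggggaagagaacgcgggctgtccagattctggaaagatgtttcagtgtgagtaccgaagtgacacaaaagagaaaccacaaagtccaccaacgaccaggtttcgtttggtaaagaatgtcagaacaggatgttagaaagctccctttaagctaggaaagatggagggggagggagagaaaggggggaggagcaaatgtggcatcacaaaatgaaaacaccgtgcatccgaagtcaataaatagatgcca
Spp1 (chr5:104434861-104435110, plus strand): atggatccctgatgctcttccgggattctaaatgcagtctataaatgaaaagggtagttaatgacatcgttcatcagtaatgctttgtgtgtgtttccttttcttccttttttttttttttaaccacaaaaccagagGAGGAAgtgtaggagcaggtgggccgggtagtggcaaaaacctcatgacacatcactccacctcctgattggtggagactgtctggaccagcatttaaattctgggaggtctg
Retnla (chr16:48842359-48842608, plus strand): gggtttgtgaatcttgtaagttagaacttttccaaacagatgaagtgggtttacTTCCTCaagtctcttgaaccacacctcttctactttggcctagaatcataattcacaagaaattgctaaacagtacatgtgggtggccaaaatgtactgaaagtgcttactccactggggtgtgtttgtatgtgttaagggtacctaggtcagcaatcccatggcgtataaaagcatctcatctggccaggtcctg

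GAGGAA stood 146 bases before the *Marco* start, 113 bases before that of *Spp1*, and on the opposite strand 40 bases before that of *Trem2* and 196 before that of *Retnla*. In *Spp1* and *Retnla* it lay inside the longer form GAGGAAGT. Of the 27 members with a window, 16 held GAGGAA on either strand (59.3%), compared with 25.9% of 27018 genes, and 3 held GAGGAAGT (*C1qc*, *Retnla* and *Spp1*, 11.1% against 2.79%). TGANTCA, a palindrome read once, was in 5 members (*Cd68*, *Cybb*, *Il1rn*, *Itgax* and *Trem2*, 18.5% against 7.82%), and in *Trem2* it began 9 bases before the start. CACGTG, the centre of the lysosomal gene element bound by TFEB, was in 0 of 27 members and in 6.86% of genes. These are matches of letters only, and binding was not measured.

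Across the whole table, 32121 of 55681 probes were tested, and the 75th percentile of the signal lay between 374 and 632 intensity units on the 12 arrays. *Sorl1* was lower in *Lr11* -/- tissue by −4.34 on the log2 scale in scWAT (adjusted p = 0.0063, limma) and −3.63 in BAT (adjusted p = 0.0319). The 3 WT scWAT arrays correlated with each other at 0.891 to 0.913 over the tested probes, below the 0.976 to 0.989 within the BAT groups, and *Lr11* -/- scWAT replicate 1 correlated at 0.924 and 0.928 with replicates 2 and 3 of its group, which correlated at 0.989. The median of 6 brown adipocyte markers was 9.18 to 9.52 on the BAT arrays, −3.84 to 3.63 in WT scWAT and 5.35 to 9.49 in *Lr11* -/- scWAT. Both tested skeletal muscle markers were high on 5 arrays, with medians of 6.56 to 9.38 on WT scWAT replicate 3, *Lr11* -/- scWAT replicate 1, WT BAT replicates 1 and 3 and *Lr11* -/- BAT replicate 1, and of −1.03 or less on the others. Replicate 1 of each group belonged to one array series, and replicates 2 and 3 to another. In the first series the scWAT arrays and the BAT arrays lay on different slides, so depot and slide coincide there. All arrays of the second series shared a slide.

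Levels are given as log2 of the signal over the 75th percentile of its array, so that 0 is the 75th percentile and each unit upwards is a factor of 2. A level belongs to its own probe, and probes of different genes are not set against each other. The macrophage genes were detected widely, with 28 of 33 tested members well above background on every array of all 4 groups. *Cd163* met this in both scWAT groups and in neither BAT group, so that it entered the test through the depot in which it was high. *Spp1*, *Atp6v0d2* and *Arg1* met it in WT scWAT only, so that they entered the test through the group in which they were high. *Il1b* met it in WT BAT only (mean −2.38), although its mean was highest in WT scWAT (−1.11). The mean was highest in WT scWAT for 32 of 33 members, and for 31 of these *Lr11* -/- scWAT came next, above both BAT groups. The median over the members was 2.05, 4.24 and 0.86 on the WT scWAT arrays, 1.15, 1.36 and 0.87 on the *Lr11* -/- scWAT arrays, −0.13, −0.028 and 0.86 on the WT BAT arrays and −0.092, 0.84 and 0.33 on the *Lr11* -/- BAT arrays. WT scWAT replicate 2 stood far above the other 11 arrays, and the next highest was WT scWAT replicate 1.

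**Figure D1:**
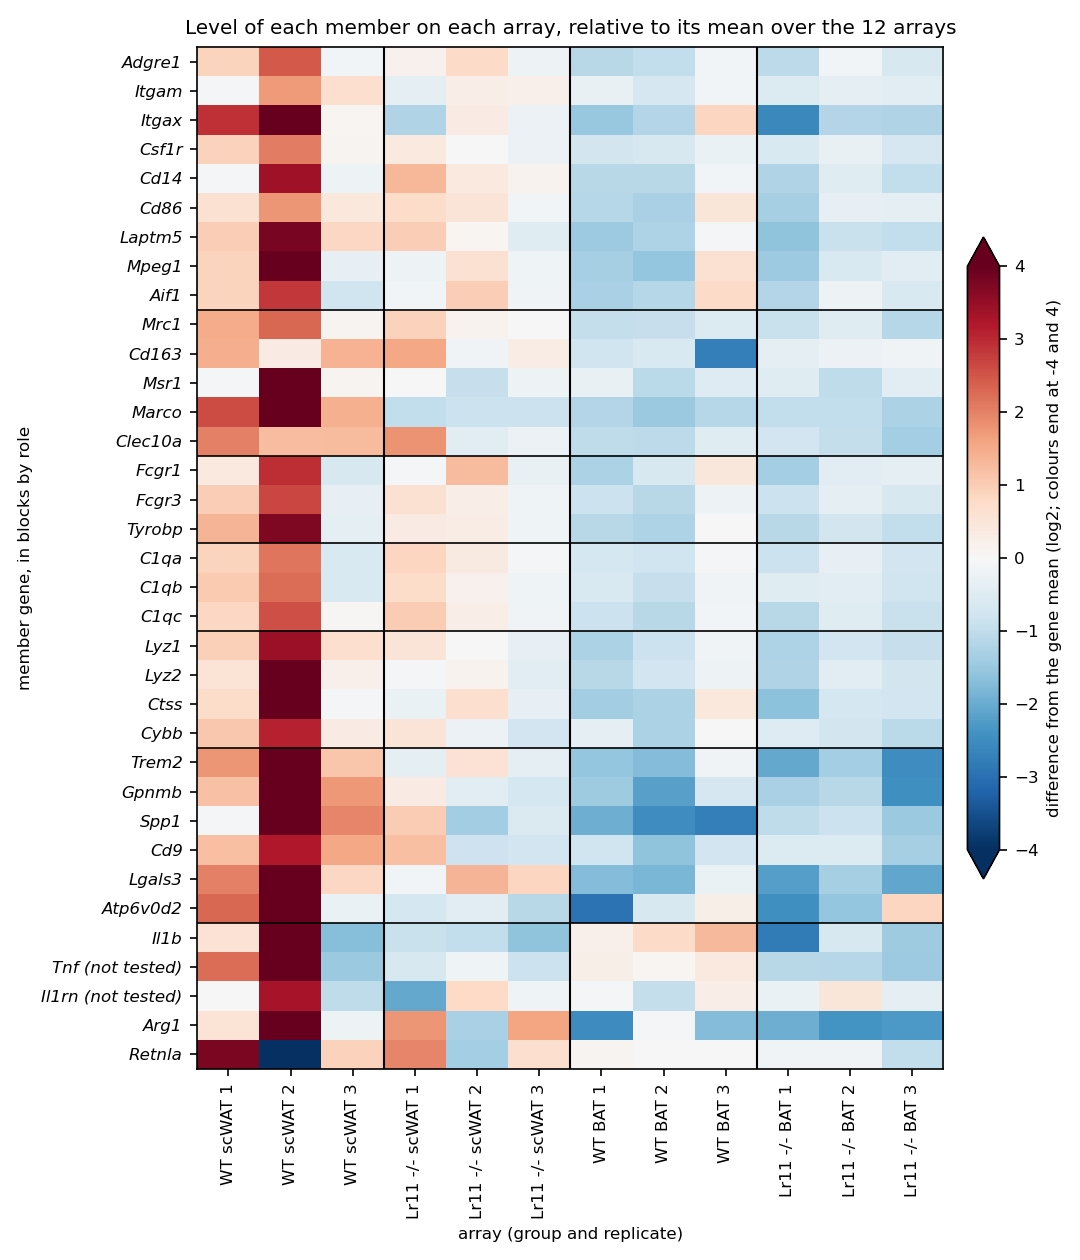
Level of the 35 members with a probe (rows, in blocks by role) on the 12 arrays (columns), as the difference in log2 units from the mean of each gene over the 12 arrays. WT scWAT replicate 2 is the darkest red column, being the highest of the 12 arrays for 30 of the 33 tested members, and *Retnla* is its blue cell.

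WT scWAT replicate 2 therefore bears on every comparison that holds WT scWAT. It also bears on the p-values of the others, through the spread that the groups share in the fit. On it 30 of 33 tested members were the highest of the 12 arrays, against 24.5% of all tested probes, and the same 30 were the highest of the 3 WT scWAT arrays, against 38.4%. *Spp1*, which encodes the secreted phosphoprotein osteopontin, was 8.69 log2 units above the mean of WT scWAT replicates 1 and 3. *Arg1*, the arginase of alternative activation, was 8.37 above it and *Il1b*, a pro-inflammatory cytokine, 7.76. These were the 3 largest such differences of 32116 probes. *Atp6v0d2*, a subunit of the lysosomal proton pump, followed at 5.66 (rank 25), *Gpnmb* at 5.61 (rank 26) and *Trem2* at 5.15 (rank 42). The 3 members that were not highest there were *Clec10a* (−0.40), *Cd163* (−1.09) and *Retnla* (−7.18, rank 9 from the lowest of the probes).

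Markers of other cells moved on the same array. The median of 7 adipocyte markers was 3.84 on WT scWAT replicate 2 and 6.61 to 7.90 on the other 11 arrays, and all 7 were lowest there among the WT scWAT arrays. The median of 6 brown adipocyte markers was −3.84 on it, the lowest of the 12 arrays. The 6 fibroblast markers had a median of 6.87 there against 5.73 and 5.44 on replicates 1 and 3, and the 6 tested neutrophil markers 4.00 against 1.91 and 0.21. The 6 T lymphocyte markers (−0.65 against −0.35 and −1.17), the 6 dendritic cell markers (−1.76 against −1.50 and −2.66) and the 6 endothelial markers (2.36 against 2.72 and 1.31) lay between the values of the other 2 WT arrays. The 5 B lymphocyte markers (−2.23 against −2.46 and −2.31) lay just above them, and the 6 mast cell markers (−1.15 against 1.0 and −0.44) and the 3 tested epithelial markers (−3.38 against −2.80 and −3.08) below. Of the remaining WT scWAT arrays, replicate 1 lay above the mean of the 3 *Lr11* -/- scWAT arrays by a median of 0.81 (30 of 33 members above) and replicate 3 by 0.12 (19 of 33), and the member median of replicate 3 was level with the lowest *Lr11* -/- scWAT array and with WT BAT replicate 3. The part of the other cell types in these levels was not tested.

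**Figure D2:**
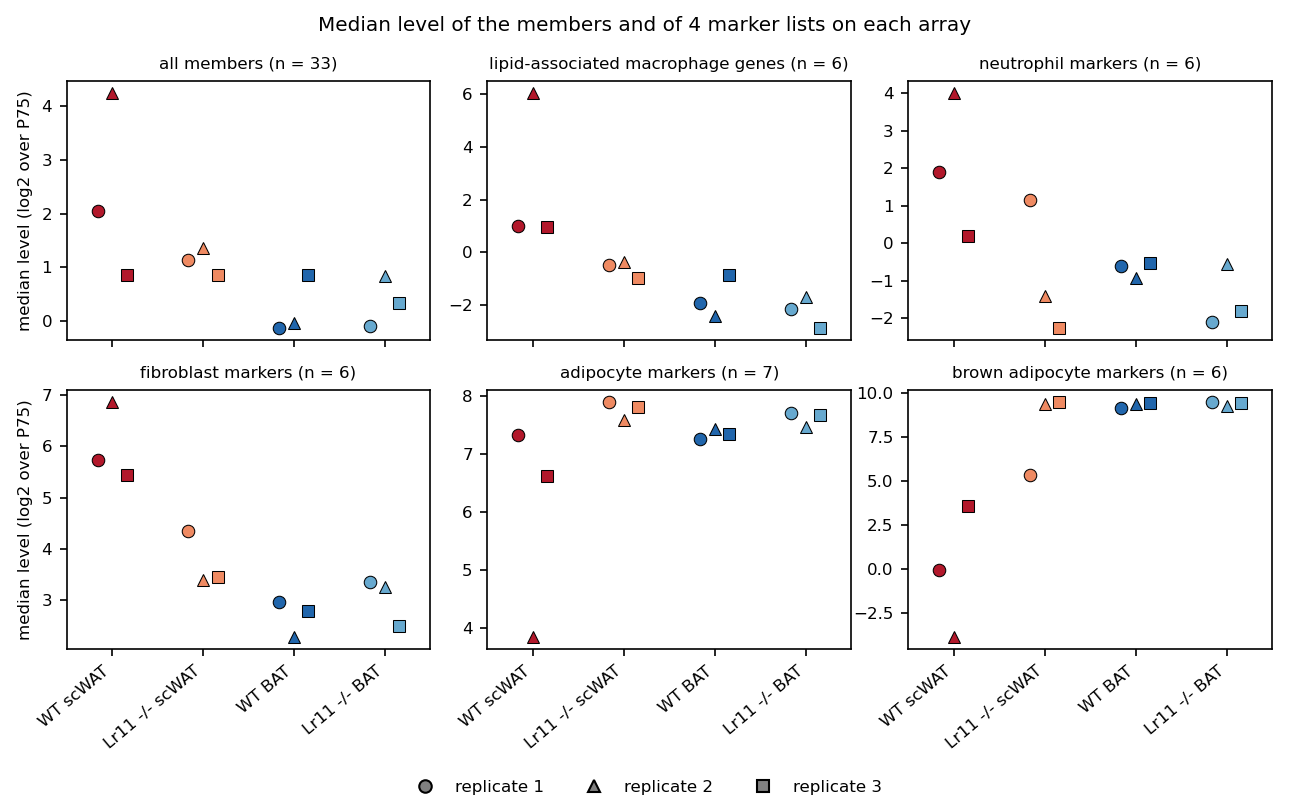
Median level (log2 over the 75th percentile of the array) of the 33 tested members, of the 6 lipid-associated macrophage genes and of 4 marker lists on each of the 12 arrays, with 1 point per array and the symbol giving the replicate. WT scWAT replicate 2 (triangle) is highest for the members, neutrophil and fibroblast markers and lowest for both adipocyte lists.

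The first comparison asked what loss of LR11 changed in scWAT, and 1 member passed the test. *Marco*, a class A scavenger receptor that binds bacteria and modified lipoproteins, fell by 4.16 on the log2 scale in *Lr11* -/- scWAT, about 17.9-fold (SE 0.80, adjusted p = 0.0339, limma with Benjamini-Hochberg adjustment over 32121 probes). Its level was 1.47, 4.57 and 0.28 in WT scWAT, −2.12, −2.01 and −2.02 in *Lr11* -/- scWAT, −2.32, −2.63 and −2.30 in WT BAT and −2.15, −2.14 and −2.43 in *Lr11* -/- BAT. Each WT scWAT array lay above the 9 arrays of the other groups, and the 3 *Lr11* -/- scWAT arrays lay just above the range of the BAT arrays. Without WT scWAT replicate 2 the log2 fold change was −2.93 and *Marco* still passed (adjusted p = 0.0161), and within the 2 array series it was −3.60 and −4.44. The call was lost without *Lr11* -/- scWAT replicate 2 (adjusted p = 0.142) or 3 (0.149), without any 1 of the 6 BAT arrays (0.0582 to 0.0636), with no filter on dim probes (0.0634) and when only the 6 scWAT arrays were fitted (0.315), at log2 fold changes between −4.18 and −4.16. Its exact two-sided permutation p over 3 against 3 arrays was 0.1, the smallest this design allows.

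Called members were 1 of 33, all lower, where 5.27% of all tested probes were called and 1.87% were called lower. Below the threshold the members leaned one way. The log2 fold change was below 0 for 32 of 33 members, against 47.5% of all probes, and its median was −1.44 against 0.042. At an unadjusted p under 0.05 there were 11 members, all lower, against 10.8% of probes lower. The 2 groups did not overlap for 7 members, all lower in *Lr11* -/- (*Marco*, *Lyz1*, *Lyz2*, *Trem2*, *Gpnmb*, *Cd9* and *Atp6v0d2*), against 8.75% of probes. *Spp1*, *Atp6v0d2* and *Arg1* entered the test only through WT scWAT, the group in which they were high. Their part in these counts is given as a description. *Spp1* and *Atp6v0d2* are among the 11, and *Atp6v0d2* is among the 7. Without WT scWAT replicate 2 the median was −0.47 and 27 of 33 members were below 0. With other arrays left out the number of called members was 5 (*Marco*, *Itgam*, *Gpnmb*, *Spp1* and *Cd9*) when WT scWAT replicate 1 was dropped. It was 9 when WT scWAT replicate 3 was (*Marco*, *Itgax*, *Csf1r*, *Mrc1*, *Tyrobp*, *C1qb*, *Cybb*, *Trem2* and *Atp6v0d2*). It was 3 (*Marco*, *Clec10a* and *Cd9*) when *Lr11* -/- scWAT replicate 1 was, and 0 when *Lr11* -/- scWAT replicate 2 or 3 or any BAT array was. The part of *Spp1* and *Atp6v0d2* in the 5 and the 9 is likewise a description. The shares of all probes in these fits, and in that without WT scWAT replicate 2, are not given. A change in the members therefore cannot be told from one over all probes.

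**Figure D3:**
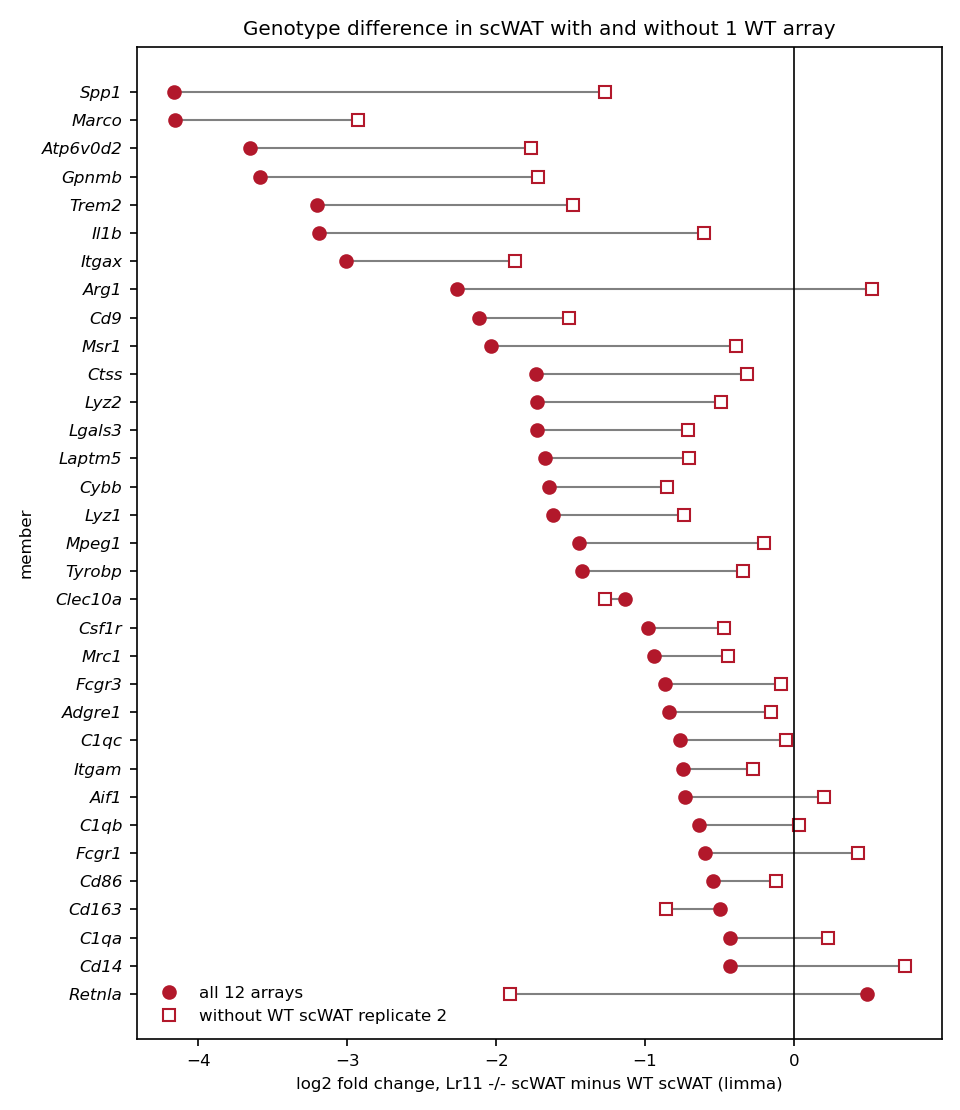
log2 fold change of the 33 tested members between *Lr11* -/- scWAT and WT scWAT, with all 12 arrays (filled circles) and without WT scWAT replicate 2 (open squares). Most squares lie nearer 0 than their circles, *Clec10a*, *Cd163* and *Retnla* move the other way, and *Marco* keeps a value of −2.93.

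The lipid-associated macrophage genes had the most negative median of the 7 role groups in scWAT, at −3.39 over 6 genes. It was −3.35 with the dim arrays of *Spp1* and *Atp6v0d2* set at the detection level. None of the 6 passed the threshold, and 5 had an unadjusted limma p under 0.05. Since *Spp1* and *Atp6v0d2* entered the test only through WT scWAT, their part in this median and count is a description. *Trem2*, the lipid-sensing receptor of these cells, was 1.27, 6.09 and 0.60 in WT scWAT, −0.85, 0.088 and −0.87 in *Lr11* -/- scWAT, −2.04, −2.23 and −0.64 in WT BAT and −2.56, −1.87 and −2.97 in *Lr11* -/- BAT. *Gpnmb*, a transmembrane glycoprotein of lipid-laden macrophages, was 0.76, 6.66 and 1.34 in WT scWAT, −0.083, −0.82 and −1.09 in *Lr11* -/- scWAT, −1.83, −2.57 and −1.06 in WT BAT and −1.70, −1.52 and −2.86 in *Lr11* -/- BAT. For both genes the 3 WT scWAT arrays lay above every other array, but replicates 1 and 3 were far nearer to the *Lr11* -/- scWAT arrays than replicate 2 was. The log2 fold change was −3.20 (SE 1.15, adjusted p = 0.109) for *Trem2* and −3.59 (SE 1.23, adjusted p = 0.0988) for *Gpnmb*, and −1.48 and −1.72 without WT scWAT replicate 2.

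*Spp1* was −3.72, 5.99 and −1.68 in WT scWAT, −2.65, −5.04 and −4.23 in *Lr11* -/- scWAT, −5.61, −6.14 and −6.38 in WT BAT and −4.67, −4.51 and −5.12 in *Lr11* -/- BAT. It was well above background on all 3 WT scWAT arrays, on 1 of 3 *Lr11* -/- scWAT arrays and on no BAT array, and *Lr11* -/- scWAT replicate 1 lay above WT scWAT replicate 1. The difference was −4.17 (SE 1.88, adjusted p = 0.18) log2 units with all arrays, −1.27 without WT scWAT replicate 2 and 1.07 between the arrays of the first series. *Cd9*, a tetraspanin used to sort lipid-associated macrophages, was 3.39, 5.37 and 3.74 in WT scWAT, 3.39, 1.36 and 1.42 in *Lr11* -/- scWAT, 1.39, 0.57 and 1.43 in WT BAT and 1.65, 1.65 and 0.84 in *Lr11* -/- BAT. *Lr11* -/- scWAT replicate 1 lay at the lowest WT level (3.39 for both), whereas replicates 2 and 3 were about 2 units below it. *Cd9* differed by −2.11 (SE 0.62, adjusted p = 0.0687) log2 units, and passed when replicate 1 of either scWAT group was left out.

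*Lgals3*, a galactoside-binding lectin released by phagocytes, was 5.87, 8.31 and 4.69 in WT scWAT, 3.76, 5.23 and 4.70 in *Lr11* -/- scWAT, 2.11, 2.04 and 3.60 in WT BAT and 1.66, 2.53 and 1.77 in *Lr11* -/- BAT. The scWAT groups overlapped, and all 6 scWAT arrays lay above all 6 BAT arrays. Its log2 fold change between the genotypes in scWAT was −1.72 (SE 0.80, adjusted p = 0.193), and −0.71 without WT scWAT replicate 2. *Atp6v0d2* was well above background on all 3 WT scWAT arrays and on 1 of 3 arrays in each other group, with a range of −4.05 to 2.90 in WT scWAT and −4.90 to −4.20 in *Lr11* -/- scWAT. Between the genotypes it differed by −3.65 (SE 1.52, adjusted p = 0.152) on the log2 scale and did not pass, and by −1.77 without WT scWAT replicate 2.

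**Figure D4:**
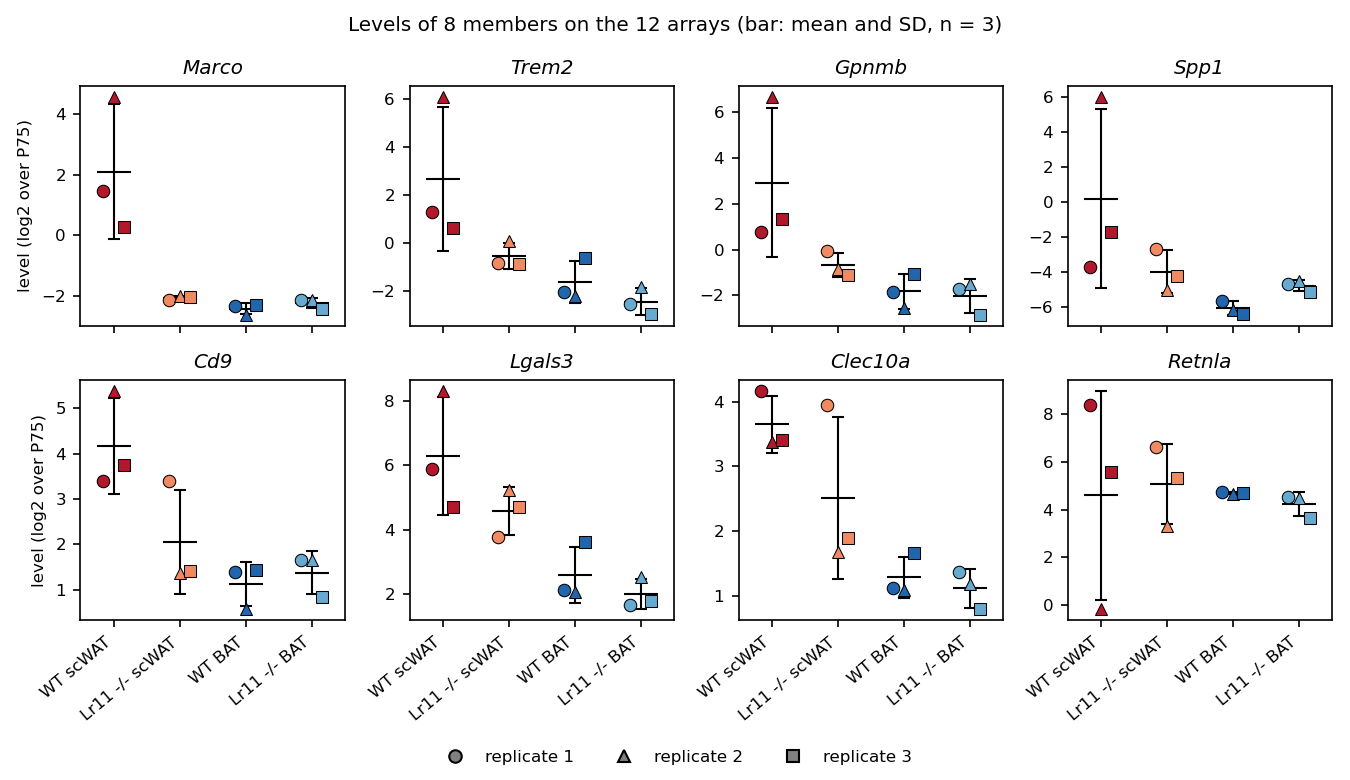
Levels of 8 members (log2 over the 75th percentile of the array) on the 12 arrays, with 1 symbol per array, the horizontal bar at the group mean and the whiskers at 1 SD (n = 3). WT scWAT replicate 2 (triangle) is the highest array for 6 of the 8 members, and for *Retnla* it is the lowest.

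The scavenger and lectin receptors other than *Marco* did not pass in scWAT. *Mrc1*, the mannose receptor of resident macrophages, was 3.00, 3.80 and 1.62 in WT scWAT, 2.43, 1.66 and 1.51 in *Lr11* -/- scWAT, 0.58, 0.60 and 0.97 in WT BAT and 0.61, 1.03 and 0.38 in *Lr11* -/- BAT. *Clec10a*, a galactose-type lectin of alternatively activated macrophages, was 4.16, 3.38 and 3.40 in WT scWAT, 3.95, 1.68 and 1.89 in *Lr11* -/- scWAT, 1.12, 1.09 and 1.66 in WT BAT and 1.38, 1.18 and 0.80 in *Lr11* -/- BAT. *Lr11* -/- scWAT replicate 1 lay among the WT scWAT arrays in both genes, while replicates 2 and 3 lay beside WT scWAT replicate 3 for *Mrc1* and below all WT scWAT arrays for *Clec10a*. *Cd163*, the haemoglobin scavenger receptor, was −2.45, −3.57 and −2.51 in WT scWAT, −2.37, −4.04 and −3.61 in *Lr11* -/- scWAT, −4.72, −4.51 and −6.65 in WT BAT and −4.29, −4.15 and −4.06 in *Lr11* -/- BAT. It was well above background on all 6 scWAT arrays, on no WT BAT array and on 2 of 3 *Lr11* -/- BAT arrays. The log2 fold changes in scWAT were −0.94 (SE 0.48, adjusted p = 0.228) for *Mrc1*, −1.14 (SE 0.52, adjusted p = 0.185) for *Clec10a* and −0.50 (SE 0.59, adjusted p = 0.614) for *Cd163*, and −0.45, −1.27 and −0.86 without WT scWAT replicate 2. *Msr1*, the class A scavenger receptor SR-A, was at 1.88 on WT scWAT replicate 2 and between −4.13 and −2.95 on the other 11 arrays.

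None of the pan-macrophage genes passed in scWAT either. *Adgre1*, which encodes a surface antigen used to stain mouse macrophages, was 1.87, 3.40 and 0.86 in WT scWAT, 1.15, 1.73 and 0.75 in *Lr11* -/- scWAT, −0.13, −0.028 and 0.86 in WT BAT and −0.092, 0.84 and 0.33 in *Lr11* -/- BAT. *Csf1r*, the receptor for the growth factor CSF1, was 5.37, 6.48 and 4.56 in WT scWAT, 4.84, 4.43 and 4.21 in *Lr11* -/- scWAT, 3.71, 3.80 and 4.19 in WT BAT and 3.85, 4.16 and 3.78 in *Lr11* -/- BAT. *Itgax*, the CD11c integrin of recruited macrophages and dendritic cells, was 2.05, 4.04 and −0.80 in WT scWAT, −2.08, −0.55 and −1.11 in *Lr11* -/- scWAT, −2.38, −2.04 and 0.0057 in WT BAT and −3.44, −2.05 and −2.06 in *Lr11* -/- BAT. For all 3 genes the genotypes overlapped in scWAT, and WT scWAT replicate 3 lay within the *Lr11* -/- range. Their log2 fold changes were −0.84 (SE 0.57, adjusted p = 0.365), −0.98 (SE 0.41, adjusted p = 0.153) and −3.01 (SE 1.06, adjusted p = 0.106), and −0.16, −0.47 and −1.87 without WT scWAT replicate 2. *Laptm5*, a lysosomal protein of haematopoietic cells, was 0.91, 3.71 and 0.75 in WT scWAT, 0.90, 0.0051 and −0.54 in *Lr11* -/- scWAT, −1.52, −1.29 and −0.10 in WT BAT and −1.68, −0.95 and −1.04 in *Lr11* -/- BAT. Of the 9 tested genes of this kind, all were below 0 in scWAT, with a median of −0.84, and 7 were without WT scWAT replicate 2, with a median of −0.20. The others were *Itgam* (−0.75), *Cd14* (−0.43), *Cd86* (−0.54), *Mpeg1* (−1.44) and *Aif1* (−0.73), none of which passed. Without WT scWAT replicate 2 *Cd14* (0.75) and *Aif1* (0.20) turned above 0, and *Itgam*, *Cd86* and *Mpeg1* were at −0.28, −0.12 and −0.20. *Csf1r* and *Itgam* have 3 probes each and *Adgre1*, *Laptm5*, *Mpeg1*, *Msr1* and *Atp6v0d2* 2 each, which were not averaged. The tested probes of a gene had the same sign in scWAT except for *Itgam*, where 1 of the 2 dimmer probes read 0.62 and the other −1.27.

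Of the role groups, the complement genes had the median nearest 0 between the genotypes in scWAT. The 3 chains of C1q, the opsonin that macrophages secrete, moved together from array to array. *C1qa* was 3.15, 4.38 and 1.64 in WT scWAT, 3.10, 2.61 and 2.17 in *Lr11* -/- scWAT, 1.53, 1.44 and 2.16 in WT BAT and 1.39, 1.92 and 1.49 in *Lr11* -/- BAT. *C1qb* was 3.09, 4.29 and 1.44 in WT scWAT, 2.80, 2.22 and 1.87 in *Lr11* -/- scWAT, 1.43, 1.12 and 1.91 in WT BAT and 1.56, 1.64 and 1.27 in *Lr11* -/- BAT. *C1qc* was 3.70, 5.45 and 2.93 in WT scWAT, 3.89, 3.15 and 2.75 in *Lr11* -/- scWAT, 2.01, 1.77 and 2.77 in WT BAT and 1.78, 2.39 and 1.99 in *Lr11* -/- BAT. WT scWAT replicate 3 had the lowest *C1qa* and *C1qb* of the 6 scWAT arrays, while replicate 2 had the highest level of each chain. The log2 fold changes of the chains were −0.43, −0.64 and −0.76 (adjusted p = 0.651, 0.503 and 0.409), with a median of −0.64, which was 0.036 without WT scWAT replicate 2. The IgG receptors *Fcgr1* and *Fcgr3* and the signalling adaptor *Tyrobp*, which also serves TREM2, had values of −0.60, −0.86 and −1.42 (adjusted p = 0.669, 0.376 and 0.271), and of 0.43, −0.085 and −0.34 without WT scWAT replicate 2.

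The lysozyme genes did not overlap between the genotypes in scWAT and did not pass the test. *Lyz1* was 5.13, 7.62 and 4.85 in WT scWAT, 4.71, 4.17 and 3.87 in *Lr11* -/- scWAT, 2.91, 3.32 and 4.05 in WT BAT and 2.94, 3.41 and 3.26 in *Lr11* -/- BAT. *Lyz2*, the lysozyme gene of macrophages and neutrophils, was 2.13, 5.67 and 1.79 in WT scWAT, 1.53, 1.71 and 1.17 in *Lr11* -/- scWAT, 0.47, 0.83 and 1.37 in WT BAT and 0.37, 1.12 and 0.84 in *Lr11* -/- BAT. For both, every WT scWAT array lay above every *Lr11* -/- scWAT array, and the gap between the groups was 0.14 units for *Lyz1* and 0.075 for *Lyz2*. Their log2 fold changes were −1.61 (SE 0.62, adjusted p = 0.128) and −1.72 (SE 0.81, adjusted p = 0.195), and −0.74 and −0.49 without WT scWAT replicate 2. *Ctss*, the cysteine protease cathepsin S, and *Cybb*, the catalytic subunit of the phagocyte oxidase, had log2 fold changes of −1.73 (SE 1.0, adjusted p = 0.287) and −1.64 (SE 0.62, adjusted p = 0.124), and of −0.31 and −0.85 without that array. Probes of *Lyz1* and *Lyz2*, which are near-identical neighbours, may take up RNA of both.

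The cytokine and alternative-activation genes varied widely among the WT scWAT arrays. *Retnla*, the secreted product of alternatively activated macrophages and of adipose tissue, was 8.41, −0.19 and 5.57 in WT scWAT, 6.62, 3.30 and 5.33 in *Lr11* -/- scWAT, 4.76, 4.66 and 4.68 in WT BAT and 4.52, 4.51 and 3.66 in *Lr11* -/- BAT. WT scWAT held both the highest and the lowest array of the 12, and the WT BAT arrays spanned only 0.092 units. Its log2 fold change in scWAT was 0.49 (SE 1.68, adjusted p = 0.875) with all arrays and −1.91 without WT scWAT replicate 2 (adjusted p = 0.292). *Il1b* was −2.55, 4.06 and −4.84 in WT scWAT, −4.03, −4.14 and −4.73 in *Lr11* -/- scWAT, −2.93, −2.37 and −1.85 in WT BAT and −5.95, −3.78 and −4.57 in *Lr11* -/- BAT. It was well above background on 2 of 3 arrays in each scWAT group, on all 3 WT BAT arrays and on 1 of 3 *Lr11* -/- BAT arrays, and WT scWAT replicate 2 was the highest array, with WT BAT replicate 3 next. *Tnf*, which was not tested, was −2.79, −1.03 and −6.48 in WT scWAT, −5.66, −5.19 and −5.89 in *Lr11* -/- scWAT, −4.77, −4.94 and −4.63 in WT BAT and −6.13, −6.16 and −6.48 in *Lr11* -/- BAT. It was well above background on 2 of 3 WT scWAT arrays and on no other. *Il1rn*, the interleukin-1 receptor antagonist, was likewise highest on WT scWAT replicate 2 (−1.06), with −6.41 to −3.54 elsewhere.

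The comparison of BAT with scWAT in WT mice had most of the called members. Of 33 members, 17 were lower in BAT and 0 higher, where 24.8% of all tested probes were called and 9.13% were called lower. They were *Adgre1*, *Itgax*, *Csf1r* and *Laptm5* of the pan-macrophage genes, *Mrc1*, *Cd163*, *Marco* and *Clec10a* of the receptors, *Fcgr3*, *C1qc*, *Lyz1* and *Cybb*, and *Trem2*, *Gpnmb*, *Spp1*, *Cd9* and *Lgals3* of the lipid-associated set. The median over the members was −2.28 against 0.068 for all probes, 32 of 33 were below 0 against 46.4%, and the groups did not overlap for 17 members, all lower, against 15.9% of probes. *Cd163*, *Spp1*, *Atp6v0d2* and *Arg1* entered the test only through scWAT, so their part in these counts is a description. Of the 28 members well above background on every array, 15 were called, all lower. The matching share of probes detected on every array was not counted. This comparison shares its WT scWAT arrays with the genotype comparison in scWAT.

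Of the 6 lipid-associated genes 5 were called. *Gpnmb* fell by 4.74 (SE 1.23, adjusted p = 0.0206), *Trem2* by 4.29 (SE 1.15, adjusted p = 0.0228), *Lgals3* by 3.70 (SE 0.80, adjusted p = 0.0107) and *Cd9* by 3.04 (SE 0.62, adjusted p = 0.00869). *Marco*, of the receptors, fell by 4.52 (SE 0.80, adjusted p = 0.00545). *Spp1* was at least 32.4-fold lower in WT BAT, where no array was well above background (adjusted p = 0.0353), but it entered the test only through WT scWAT, so its call is given as a description. Without WT scWAT replicate 2 the log2 fold changes were −2.87 for *Gpnmb* and −2.57 for *Trem2*, both past the threshold, and the median of the set was −2.63 in place of −4.16. *Atp6v0d2*, the remaining gene of the set, was well above background on 1 of 3 WT BAT arrays, was at least 10.4-fold lower there with the dim arrays at the detection level, and did not pass (adjusted p = 0.0749). With the dim arrays of *Spp1* and *Atp6v0d2* set at the detection level the median of the set was −4.0. The folds of both genes include WT scWAT replicate 2, so neither is a minimum for the other WT scWAT arrays. Without that array the fitted log2 fold change was −3.34 in place of −6.24 for *Spp1* and −2.14 in place of −4.02 for *Atp6v0d2*.

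Of the receptors, *Mrc1* fell by 2.09 (SE 0.48, adjusted p = 0.0127) and *Clec10a* by 2.36 (SE 0.52, adjusted p = 0.0112). *Cd163* was at least 3.33-fold lower in WT BAT (adjusted p = 0.0151), but it entered the test only through the scWAT groups, so its call is given as a description. The 4 called pan-macrophage genes fell by 1.57 (*Csf1r*, adjusted p = 0.0204) to 3.24 (*Itgax*, adjusted p = 0.0481), and 5 of the 9 tested did not pass. *Cd86* (−1.58, adjusted p = 0.0507), *Tyrobp* (−2.35, adjusted p = 0.0529), *Lyz2* (−2.31, adjusted p = 0.0601) and *Itgam* (−1.13, adjusted p = 0.0556) lay just outside the threshold. Other probes of these genes disagreed in places, since the second probe of *Mpeg1* passed (−3.37, adjusted p = 0.0445) where the brightest did not (−2.28, adjusted p = 0.098), the second of *Adgre1* (−1.35, adjusted p = 0.0929) and both other probes of *Csf1r* (−1.52 and −0.55) did not pass, and 1 dimmer probe of *Itgam* had the other sign (1.16, adjusted p = 0.0787).

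*Marco*, *Clec10a* and *Cd9* passed in the depot comparison under all 23 alternatives, which include each of the 12 arrays left out in turn. The number of called members was 12 without WT scWAT replicate 2, with a median of −1.24, and 27 without WT scWAT replicate 3. It was 6 without WT BAT replicate 1 or 2, 11 without any 1 of the *Lr11* -/- BAT arrays and 5 with the slide as a block. In that last fit the first series holds no depot comparison within a slide. The share of all probes called in each of these fits is not given, so a change in the members cannot be told from one over all probes. The median of 6 fibroblast markers was 5.44 to 6.87 in WT scWAT and 2.27 to 2.95 in WT BAT, with 5 of 6 called lower in BAT, and 5 of 6 brown adipocyte markers were called higher. Their part in the depot difference of the macrophage genes was not tested.

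In *Lr11* -/- mice the same comparison of depots had 0 called members in limma (3 at an unadjusted p under 0.05, *Lgals3*, *Clec10a* and *Mrc1*, all lower in BAT, as were 3.42% of all probes), where 0.0405% of all tested probes were called. All 33 members were below 0, as were 43.4% of all probes, with a median of −0.93 against 0.069 for all probes, and 23 did not overlap between the depots, all lower in BAT, against 9.17% of probes. *Cd163* entered the test only through the scWAT groups, so its part in these counts is a description. *Lgals3* had the lowest p, at −2.58 (SE 0.80, adjusted p = 0.394), and *Marco* the value nearest 0, at −0.19 (SE 0.80, adjusted p = 0.956). These p-values use the spread shared with WT scWAT. Without WT scWAT replicate 2, which is in neither group compared, the limma adjusted p of *Lgals3* was 0.153 at the same log2 fold change. With all arrays, the difference between the depots was nearer 0 in *Lr11* -/- mice than in WT mice for 32 of 33 members. The matching share of all probes was not counted, and calls among all tested probes also fell, from 24.8% in WT mice to 0.0405%. Without WT scWAT replicate 2 the WT median was −1.24, still further from 0 than the *Lr11* -/- median of −0.93. In that fit *Cd14*, *Aif1*, *Fcgr1*, *C1qa*, *C1qb*, *C1qc* and *Arg1* were nearer 0 in WT mice. The *Lr11* -/- median was −1.71 in the first array series and −0.68 in the second. In the first series the depots lay on different slides, so depot and slide cannot be told apart there. *Lr11* -/- scWAT replicates 2 and 3, of the second series, were high in brown adipocyte markers (9.40 and 9.49, against 5.35 on replicate 1). The part of slide or of brown adipocytes in the gap between the series was not tested.

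**Figure D5:**
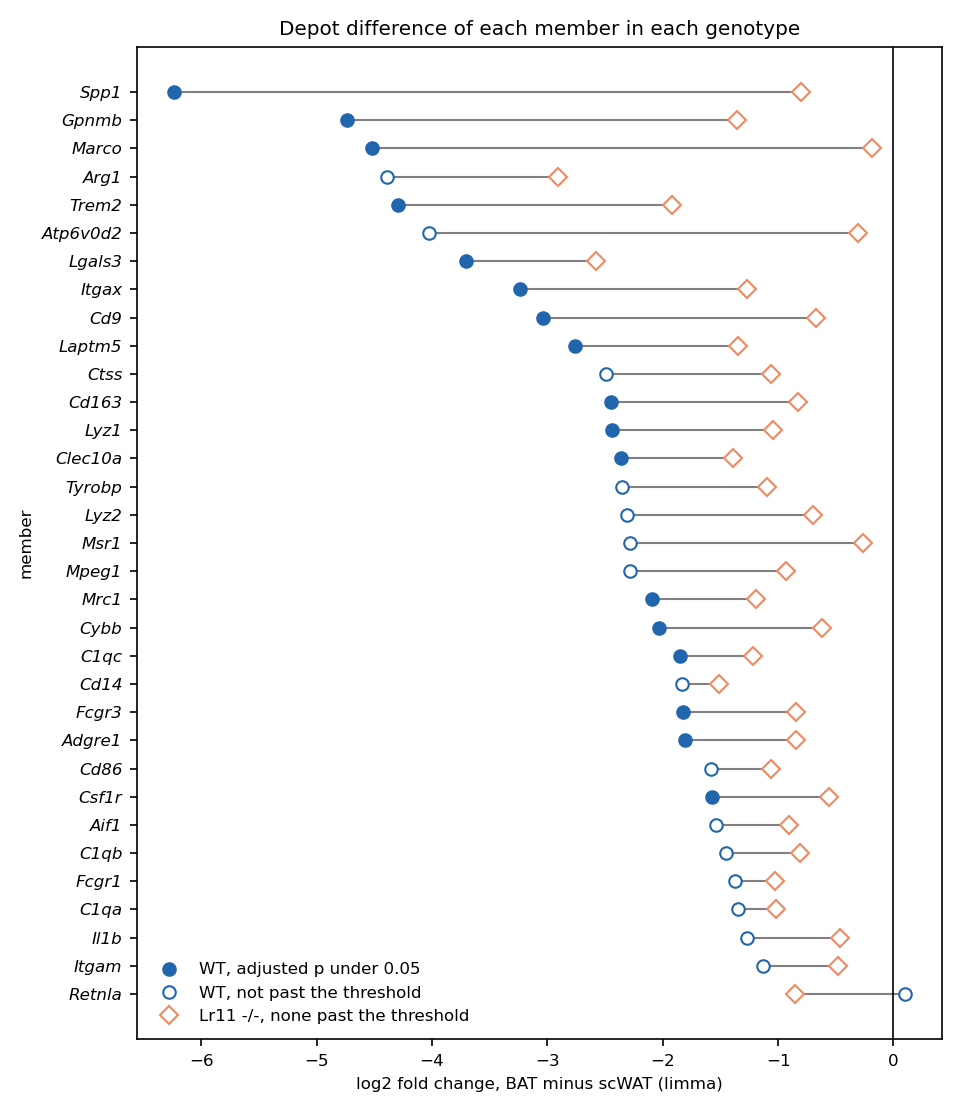
log2 fold change of the 33 tested members between BAT and scWAT, with all arrays, in WT mice (circles, filled where the adjusted p was under 0.05) and in *Lr11* -/- mice (diamonds). All but *Retnla* in WT lie below 0, 17 WT circles are filled, and the diamonds lie nearer 0 than the circles for every member but *Retnla*.

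Whether the genotype difference itself differed between the depots was tested as an interaction, in which 0 members were called by limma (2 at an unadjusted p under 0.05, *Marco* and *Cd9*, both below 0, against 4.36% of probes) and 0% of all tested probes were. The interaction was below 0 for 32 of 33 members, against 48.9% of probes, and its median was −1.26 against 0.017 for all probes, and −0.37 without WT scWAT replicate 2. *Marco* had −4.33 (SE 1.14, adjusted p = 0.374) and *Cd9* −2.36 (SE 0.88, adjusted p = 0.409). *Marco* passed in it without WT scWAT replicate 3. With all 12 arrays no member was shown to differ in its depot difference between the genotypes.

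In BAT no member passed between the genotypes. limma called 0 of 33 members (0 at an unadjusted p under 0.05, where 2.12% of all probes were), and 0.0187% of all tested probes were called. The median was −0.11 against 0.039, with 24 of 33 members below 0 against 43% of probes. It ranged from −0.28 to 0.18 as each array was left out, turning above 0 without WT BAT replicate 3, the highest of the 6 BAT arrays for 24 members. The groups did not overlap for 4 members, *Il1b* and *Retnla* lower (4.65% of probes) and *Cd163* and *Spp1* higher (7.4% of probes). *Retnla* lay between 4.66 and 4.76 on the WT BAT arrays and between 3.66 and 4.52 on the *Lr11* -/- BAT arrays (log2 fold change −0.47 (SE 1.68, adjusted p = 1)). *Il1b* was at least 3.84-fold lower on the *Lr11* -/- BAT arrays, of which 1 of 3 was well above background, but it entered the test only through WT BAT and did not pass (adjusted p = 1). *Cd163* was 1.33-fold higher in *Lr11* -/- BAT with the WT BAT arrays at the detection level, and did not pass either (adjusted p = 1). No WT BAT array and 2 *Lr11* -/- BAT arrays were well above background, so this fold is not a bound. *Spp1* was not well above background on any BAT array. The 95% interval of the log2 fold change was −1.60 to 1.95 for *Marco*, −1.13 to 1.39 for *Adgre1* and −3.37 to 1.71 for *Trem2*. These limits use the spread that the 4 groups share in the fit, not that of the BAT arrays alone. The median SD of the members was 1.85 in WT scWAT, against 0.58 in WT BAT and 0.38 in *Lr11* -/- BAT. Differences inside these limits remain compatible with this fit of 3 arrays a group.

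Other genes of macrophage biology were compared between the depots of WT mice, where 9.13% of all probes were called lower. Of 22 tested genes of myeloid signalling, among them the kinase *Syk* (−2.54, adjusted p = 0.0178) and the oxidase subunit *Ncf1* (−2.35, adjusted p = 0.021), 7 were lower in WT BAT than in WT scWAT, and the median of the list was −2.19. Of 13 growth factor and transcription factor genes 4 were lower, *Il34*, *Csf2rb*, *Maf* and *Runx1*, and *Cebpb* was higher (0.89, adjusted p = 0.0496). Of 14 other resident macrophage genes 5 were lower (*Vsig4*, *Mertk*, *Axl*, *Pf4* and *Gas6*), of 18 other lipid-associated and lysosomal genes 3 (*Ctsl*, *Ctsk* and *Cd63*), and of 10 other activation genes 2 (*Chil3* and *Cd80*). The last 2 counts are too small to be read apart from that share, and the lipid-associated and lysosomal list had a median of −0.31, with 11 of 18 genes below 0.

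Between the genotypes in scWAT 5.27% of all probes were called and 1.87% were called lower, and a small count cannot be read apart from these shares. Of these 77 genes 1 passed. It was *Ctsk*, the collagen-degrading protease cathepsin K, at 4.32, 7.58 and 3.56 on the WT scWAT arrays and at 2.56, 1.61 and 1.51 on those of *Lr11* -/- scWAT (log2 fold change −3.26, adjusted p = 0.0493). In BAT 0 passed in limma, and 0 had an unadjusted p under 0.05. Among markers of other cells, *S100a8*, a calcium-binding protein of neutrophils and monocytes, was lower in *Lr11* -/- scWAT (−4.86, adjusted p = 0.0378), as were the fibroblast genes *Dcn* (−1.64, adjusted p = 0.0454) and *Lum* (−2.25, adjusted p = 0.0206). The brown adipocyte genes *Ucp1* (10.14, adjusted p = 0.0326), *Cidea* (8.70, adjusted p = 0.0405), *Cox7a1* (5.70, adjusted p = 0.0385) and *Ppargc1a* (4.50, adjusted p = 0.037) were higher. Their part in the differences of the macrophage genes was not tested.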

How the data were processed

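RNA from 12 tissues was labelled with Cy3 and hybridised to 8 x 60K Agilent mouse arrays, 3 for each group. The authors deposited intensity values from Feature Extraction 10.10 (10.10.1.1 in the file headers), background-subtracted and spatially detrended within each array and not normalised between arrays. The deposited series table held the same numbers. Groups were taken from the labels, which carry no replicate numbers, so replicates were numbered in accession order.

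Here log2 signals were centred on the 75th percentile of each array, control spots and outlier spots were left out, and spots of a probe were averaged. Accessions were named through a RefSeq table of GRCm38.p6, for 27235 of 28685 RefSeq probes. Of 55681 probes, 32121 were tested, each well above background on every array of 1 or more groups, using limma 3.58.1 in R 4.3.3, with 1 mean per group and all 12 arrays in the fit, Benjamini-Hochberg adjustment over all tested probes and a threshold of 0.05. No spot was saturated, 32377 to 37002 spots an array were well above background, and 3 arrays a group limit the precision. No test was named for the arrays in the study's methods. A brighter-over-dimmer fold against a group with fewer than 3 detected arrays sets its undetected arrays no lower than their lowest detected signal. It is a bound where all arrays of the brighter group were detected. The fit was tested on simulated data.

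The members and lists, with markers of neutrophils, B and T lymphocytes, dendritic cells, mast cells, adipocytes, brown adipocytes, endothelium, fibroblasts, epithelium and skeletal muscle, were chosen with earlier results of these data known, so lists were described by counts and medians. Full values are given for called members, at most the 12 of largest change, and for 20 members on a set list, and other genes were named where called between genotypes. Genes of the other macrophage lists called between depots were named after their values were seen. Alternatives changed the scaling, background correction, filter, batch terms, samples and eBayes settings. Figures used matplotlib 3.10.9.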

Additional observations from a re-analysis of the deposited data

How the results depend on the processing

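The count of called members was unstable. The share of all probes called under each alternative is not given beside it. In the scWAT genotype comparison it was 1 with all arrays, 0 to 9 with each array left out, 0 with no filter on dim probes, 0 in a fit to the 2 groups alone, 3 in the second array series alone and 4 with WT scWAT replicate 2 and *Lr11* -/- scWAT replicate 1 both left out, an alternative added after seeing the data. Its median was −2.19 to −0.47 with each array left out. In the interaction the count was 0 to 1 with each array left out and 4 with both arrays left out, and the median was −1.92 to −0.37. In the WT depot comparison the count, 17 with all arrays, was 6 to 27 with each array left out, 11 with no filter, 5 with the slide as a block, 7 in the second series and 3 in a fit to the 2 groups, and its median was −2.95 to −1.24 with each array left out and −1.24 with both arrays left out. A second-series or 2-group fit uses fewer arrays, and a 2-group fit takes its spread from those groups alone. The main fit shares 1 spread among the groups. The median SD of the members was 1.85 in WT scWAT, 0.52 in *Lr11* -/- scWAT, 0.58 in WT BAT and 0.38 in *Lr11* -/- BAT. The calls that involve WT scWAT thus depend on treating unequal spreads as equal. The part of each of these in the counts was not tested.

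In BAT and between the depots of *Lr11* -/- mice the count was 0 under every alternative run, and the median was −0.28 to 0.18 and −1.13 to −0.81 with each array left out. Median scaling moved the median of all probes to 0.15 in the scWAT genotype comparison and 0.20 in the WT depot comparison, and the member medians stayed at −1.33 and −2.16. No called member changed sign. Of 3274 comparisons in which a member stayed uncalled, 102 had the other sign. Normexp was run on the median signals, since the files hold no mean signals, and the 2-group fit was not run for the interaction, which needs all arrays. No paired analysis was possible because the labels carry no replicate numbers.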
